A study of Mus musculus with 4 samples.

Results

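The troponin subunit genes were described in C3H10T1/2 cells, a mouse mesenchymal stem cell line, without and with 5-AZA (5-azacytidine, a cytidine analogue that lowers DNA methylation). The members were the 8 genes Tnnc1, Tnnc2, Tnni1, Tnni2, Tnni3, Tnnt1, Tnnt2 and Tnnt3, of 21878 genes with mRNA values. Every transcript listed under these names was taken, which gave 88 of 75959 transcripts. RNA without ribosomal RNA was sequenced in 4 samples: untreated replicates 1 and 2, and 5-AZA replicates 101 and 102. The labels give 20 μM 5-AZA for 72 hours and then 21 days in fresh medium, and give no culture time for the untreated samples. All samples carry the same cell line label, and the line stands as a model of mesenchymal stem cells in culture. Mesenchymal and fibroblast markers were present in all 4 samples. The most abundant, Vim, an intermediate filament gene, was at 2268 and 2406 FPKM in the untreated samples and at 1178 and 1380 FPKM after 5-AZA, while the median log2 fold change of the 8 markers was 0.52. FPKM are fragments scaled to transcript length and to library size, so levels of different genes can be set side by side. The FPKM of all mRNA transcripts summed to 343955 and 334568 in the untreated samples and to 328410 and 361664 in the 5-AZA samples. How many reads stand behind any value is unknown, since FPKM hold no counts.

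Troponin is the calcium switch of striated muscle and sits with tropomyosin on the thin filament. Troponin C binds calcium, troponin I inhibits the interaction of actin and myosin, and troponin T ties the complex to tropomyosin. Each subunit has paralogs that mark muscle types: Tnnc2, Tnni2 and Tnnt3 are the fast skeletal forms, Tnni1 and Tnnt1 the slow skeletal forms, Tnni3 and Tnnt2 the cardiac forms, and Tnnc1 serves slow and cardiac muscle. Tnnt2 and Tnni1 are also expressed in embryonic skeletal muscle. The question was which of these paralogs the 5-AZA samples expressed, and from which transcripts.

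All 8 genes were higher after 5-AZA in both samples than in either untreated sample, as were 4854 of 13199 genes tested, or 36.8%. limma called 8 of 8 higher, at an adjusted p below 0.05 and over 2-fold, against 1724 of those 13199 genes, or 13.1% (174 genes were called lower). Higher calls were 90.8% of all calls, or 54.0% with quantile normalization, under which limma also called 8 of 8 troponins higher. The summed FPKM of the 8 genes was 8.82 and 5.99 in the untreated samples and 528 and 765 in the 5-AZA samples. As a share of all mRNA FPKM this was 0.00256% and 0.00179% before and 0.161% and 0.212% after. The median log2 fold change of the 8 genes was 6.27, on the scale of log2(FPKM + 0.1), beside 0.05 over all genes tested. This scale understates the change of genes with low values. The limit of a mean of 0.1 FPKM over the 4 samples was passed by 8 of 8 genes, and 7 of them reached it in the untreated samples alone (899 of 12130 such genes were called higher). The exception was Tnni2. In bulk RNA, fewer cells of a type and less RNA per cell cannot be told apart. The labels do not say that replicates were separate cultures (the paper calls them biological repeats), so p-values measure the spread between these samples, which may be technical. With 2 samples against 2, a two-sided exact permutation test of a single value cannot give a p below 0.333.

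**Figure D1:**
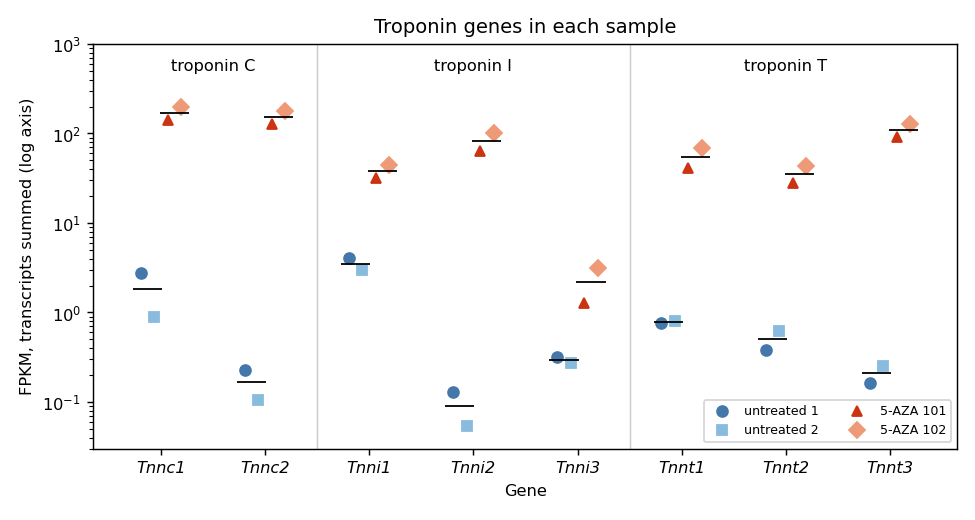
FPKM of the 8 troponin genes (transcripts summed, log axis) in each of the 4 samples, with a bar at the mean of each group of 2. The 5-AZA samples lie above the untreated samples for every gene, and Tnni3 is the lowest gene after 5-AZA, at 1.27 and 3.12 FPKM.

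Of the calcium-binding subunits, Tnnc1, the slow and cardiac form, was at 2.79 and 0.882 FPKM in untreated replicates 1 and 2 and at 142.5 and 197.0 FPKM in 5-AZA replicates 101 and 102. Tnnc2, the fast form, was at 0.225 and 0.106 FPKM and then at 127.6 and 180.2 FPKM. Both genes were higher in both 5-AZA samples than in either untreated sample, as were 36.8% of all genes tested. Their log2 fold changes were 6.64 ± 0.41 (SE, n = 2 and 2; limma, adjusted p = 8.4e-06) for Tnnc1 and 9.20 ± 0.25 (limma, adjusted p = 1.82e-07) for Tnnc2. The untreated values of Tnnc1 differed more than 3-fold from each other, and its call was lost without either 5-AZA sample (log2 fold changes of 6.87 without replicate 101 and 6.40 without replicate 102; limma, adjusted p = 0.0767 and 0.0828; 3.99e-23 to 0.0828 over 13 alternatives). Its log2 fold change was 7.42 without untreated replicate 1 and 5.86 without untreated replicate 2, the range of the alternatives. Because the members moved together, the 250 bases before their transcription starts are shown, from RefSeq on GRCm38.p6. Capitals mark E-boxes (CANNTG), the motif of the myogenic helix-loop-helix factors, and MCAT motifs (CATTCC), that of the TEAD factors, on either strand. Tnnc1 lies at chr14:31208062-31208311 on the + strand and Tnnc2 at chr2:164779735-164779984 on the - strand.
Tnnc1: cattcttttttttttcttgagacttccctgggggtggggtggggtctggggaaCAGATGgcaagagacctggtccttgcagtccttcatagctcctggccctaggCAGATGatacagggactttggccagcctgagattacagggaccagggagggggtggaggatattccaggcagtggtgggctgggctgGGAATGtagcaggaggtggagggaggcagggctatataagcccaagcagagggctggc
Tnnc2: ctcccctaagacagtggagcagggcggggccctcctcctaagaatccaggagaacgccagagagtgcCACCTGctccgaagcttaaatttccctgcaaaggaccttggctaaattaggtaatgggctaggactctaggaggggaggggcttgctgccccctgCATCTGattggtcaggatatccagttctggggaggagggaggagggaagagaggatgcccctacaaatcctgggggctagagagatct

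Among the inhibitory subunits, the fast form Tnni2 was at 0.128 and 0.0538 FPKM in the untreated samples and at 64.0 and 100.4 FPKM after 5-AZA. The slow form Tnni1 was at 4.03 and 3.00 FPKM and then at 31.9 and 44.4 FPKM, so that it had the highest untreated level of the 8 genes. The cardiac form Tnni3 was at 0.321 and 0.273 FPKM and then at 1.27 and 3.12 FPKM. The groups of Tnni3 did not overlap, but its level after 5-AZA stayed far below those of the other members. The log2 fold changes were 8.74 ± 0.27 for Tnni2 (SE; limma, adjusted p = 2.98e-07), 3.40 ± 0.19 for Tnni1 (limma, adjusted p = 5.78e-06) and 2.41 ± 0.40 for Tnni3 (limma, adjusted p = 0.00247). The call of Tnni3 was lost without 5-AZA replicate 102 (log2 fold change 1.79; limma, adjusted p = 0.0585) and with no limit on low values (unchanged at 2.41; limma, adjusted p = 0.106; 2.97e-05 to 0.106 over 13 alternatives). Its log2 fold change ran from 1.24 with a pseudocount of 1 FPKM to 3.48 with curated transcripts only, and was 3.03 without 5-AZA replicate 101 and 1.59 with quantile normalization. The promoter of Tnni1 is shown for the first of its 2 starts, at chr1:135799171-135799420 on the + strand, and that of Tnni3 at chr7:4522529-4522778 on the - strand.
Tnni1: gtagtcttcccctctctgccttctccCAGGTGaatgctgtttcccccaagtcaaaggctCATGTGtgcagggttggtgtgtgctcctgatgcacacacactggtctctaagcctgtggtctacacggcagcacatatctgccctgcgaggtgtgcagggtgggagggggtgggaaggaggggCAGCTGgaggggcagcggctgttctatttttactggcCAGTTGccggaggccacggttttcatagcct
Tnni3: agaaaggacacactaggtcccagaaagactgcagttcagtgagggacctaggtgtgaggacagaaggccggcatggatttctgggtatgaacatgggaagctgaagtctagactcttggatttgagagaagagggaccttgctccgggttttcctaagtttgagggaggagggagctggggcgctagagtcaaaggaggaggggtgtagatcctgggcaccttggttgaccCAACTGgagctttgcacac

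Among the tropomyosin-binding subunits, the fast form Tnnt3 was at 0.164 and 0.254 FPKM in the untreated samples and at 91.0 and 127.7 FPKM after 5-AZA. The slow form Tnnt1 was at 0.771 and 0.814 FPKM and then at 41.0 and 69.1 FPKM. The cardiac form Tnnt2, which embryonic skeletal muscle also expresses, was at 0.385 and 0.618 FPKM and then at 28.3 and 43.1 FPKM. All 3 genes were higher in both 5-AZA samples than in either untreated sample, as were 36.8% of all genes tested. Their log2 fold changes were 8.46 ± 0.21 for Tnnt3 (SE; limma, adjusted p = 1.66e-07), 5.90 ± 0.23 for Tnnt1 (limma, adjusted p = 8.15e-07) and 5.89 ± 0.26 for Tnnt2 (limma, adjusted p = 1.43e-06). With a pseudocount of 1 FPKM those of Tnnt1 and Tnnt2 were 4.92 and 4.59, and with curated transcripts only 7.9 and 6.76, the ranges of the alternatives. Tnnt1 is shown at chr7:4515976-4516225 on the - strand, and Tnnt2 for the first of its 2 starts, at chr1:135836084-135836333 on the + strand. Capitals again mark E-boxes and MCAT motifs.
Tnnt1: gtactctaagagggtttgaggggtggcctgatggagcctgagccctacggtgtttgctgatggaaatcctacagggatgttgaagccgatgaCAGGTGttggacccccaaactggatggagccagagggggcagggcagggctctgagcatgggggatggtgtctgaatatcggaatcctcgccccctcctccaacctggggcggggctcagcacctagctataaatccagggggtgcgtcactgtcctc
Tnnt2: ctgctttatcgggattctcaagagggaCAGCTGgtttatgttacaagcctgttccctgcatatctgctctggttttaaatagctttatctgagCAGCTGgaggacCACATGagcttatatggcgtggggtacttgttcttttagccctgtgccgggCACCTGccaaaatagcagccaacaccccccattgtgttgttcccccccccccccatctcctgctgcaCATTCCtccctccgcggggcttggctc

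Promoters were matched for 6 of 8 members, all but Tnni2 and Tnnt3. Each of the 6 held at least 1 E-box in the 250 bases before a start, as did 66.2% of the 32851 mouse promoters of the same length. Tnni1 and Tnnt2 each held 4 at their first start, Tnnc1 and Tnnc2 held 2, and Tnnt1 and Tnni3 held 1, where the median promoter held 1. The MCAT motif was found before Tnnc1 and before the first start of Tnnt2 (12.6% of all promoters). At Tnnt2 it lay 27 to 22 bases before the start. The letters GATAA, part of the motif of GATA factors, were found before the first start of Tnnt2, in 2 places (22.6% of all promoters). Both lie on the opposite strand and read ttatc in the sequence shown. TATAAA was found before Tnnt1, 30 to 25 bases from the start (12.4%). MEF2 and CArG motifs were also searched on both strands and had no match in these windows (1.69% and 1.47% of all promoters held them). E-boxes did not overlap with the other motifs. The number of CG dinucleotides, the sites of DNA methylation, was 0 for Tnnc1, 3 for Tnnc2 and Tnni3, 5 for the first starts of Tnni1 and Tnnt2, and 6 for Tnnt1. The median over all promoters was 6, with quartiles of 2 and 16. The second start of Tnnt2, 655 bases farther on, held 0 CG dinucleotides and 1 E-box, and that of Tnni1, 90 bases farther on, held 6 and 2. A match describes letters and is not a binding site.

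**Figure D2:**
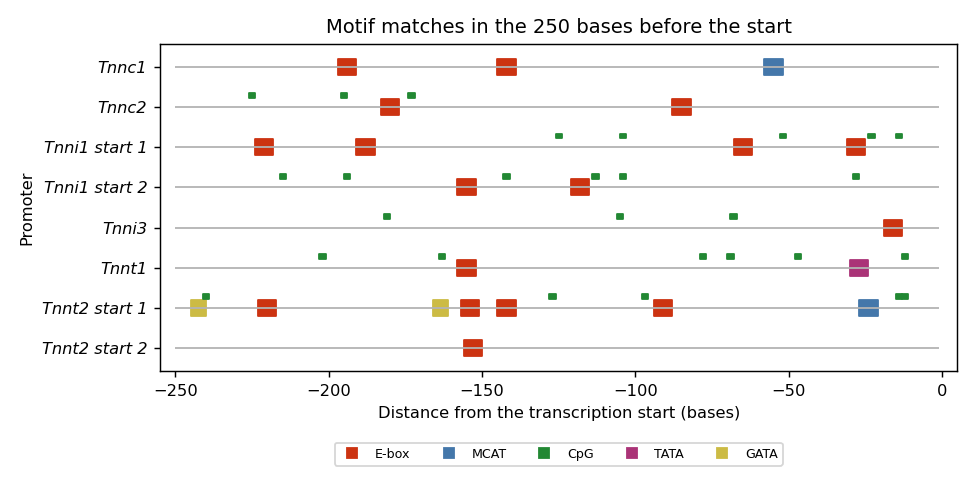
Positions of motif matches in the 250 bases before 8 transcription starts of 6 troponin genes, in bases from the start. E-boxes (tall red boxes) were found before every start, MCAT (blue) before Tnnc1 and the first start of Tnnt2, and CG dinucleotides (small green boxes) were absent before Tnnc1 and the second start of Tnnt2.

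By position, the genes of troponin I and T lie in pairs. In RefSeq's GRCm38.p6 gene table Tnnt1 and Tnni3 are direct neighbours, Tnni1 and Tnnt2 are separated by Lad1, and Tnni2 and Tnnt3 by Lsp1 and Prr33. The flanking and intervening genes were looked up after the troponin values were known. Of 12 with values, 11 were tested and 3, Syt8, Lsp1 and Sema3g, were called higher, beside 13.1% of all genes tested. Of these 3, Syt8 passed the limit on low values through its 5-AZA values. Lad1, a basement membrane filament gene, stayed below 0.1 FPKM in all samples, at 0.0312 and 0.0784 FPKM untreated and 0.0599 and 0.0338 FPKM after 5-AZA, and was not tested. Lsp1, an actin-binding protein gene, was at 2.48 and 2.23 FPKM and then at 10.3 and 14.7 FPKM, and was called higher (log2 fold change 2.34 ± 0.20; limma, adjusted p = 4.75e-05). Syt8, beyond Tnni2, was at 0.0171 and 0.0626 FPKM and then at 0.585 and 0.591 FPKM (log2 fold change 2.32 ± 0.36; limma, adjusted p = 0.00188). On the other side of this pair Mrpl23, beyond Tnnt3, was at 35.6 and 35.7 FPKM and then at 36.0 and 37.1 FPKM. Ppp1r12c, beyond Tnnt1, was at 7.68 and 6.93 FPKM and then at 8.07 and 8.46 FPKM. Neither was called. Beside Tnnc1, the semaphorin gene Sema3g was called higher, from 0.172 and 0.211 FPKM to 2.52 and 4.54 FPKM (log2 fold change 3.59 ± 0.32; limma, adjusted p = 7.39e-05). On its other side Nisch was not called, at 37.9 and 38.5 FPKM untreated and 36.1 and 43.9 FPKM after 5-AZA.

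The order of the levels after 5-AZA was the same in both samples: Tnnc1, Tnnc2, Tnnt3, Tnni2, Tnnt1, Tnni1, Tnnt2 and Tnni3. Means ranged from 169.7 ± 38.5 FPKM (SD, n = 2) for Tnnc1 to 35.7 ± 10.5 FPKM for Tnnt2, with Tnni3 below all of these. Each gene's pair of values overlapped with that of the next gene in this order, except that Tnnt2 and Tnni3 were apart. In the untreated samples the order of the means was another: Tnni1 led, at 3.51 ± 0.734 FPKM, followed by Tnnc1 at 1.83 ± 1.35 FPKM, and Tnni2 was the lowest, at 0.0909 ± 0.0525 FPKM. Among all genes tested, the log2 fold changes of the fast forms Tnnc2, Tnni2 and Tnnt3 ranked 4, 6 and 7 (4, 7 and 6 with a pseudocount of 1 FPKM, and 12, 14 and 31 with 0.01 FPKM). Tnnc1 ranked 40, Tnnt1 72, Tnnt2 75, Tnni1 431 and Tnni3 781 in the main fit. With pseudocounts of 1 and 0.01 FPKM, Tnnc1 ranked 13 and 191, Tnnt1 28 and 289, and Tnnt2 37 and 268. Tnni1 then ranked 115 and 901, and Tnni3 650 and 1126. The size of the largest changes depended on the pseudocount: with 1 and 0.01 FPKM, log2 fold changes were 7.03 and 9.84 for Tnnc2, 6.22 and 9.74 for Tnni2 and 6.49 and 8.97 for Tnnt3. Replicate 102 was higher than replicate 101 for 8 of 8 genes, by 1.38 to 2.46 times. The median of this ratio was 1.11 over all genes tested and 1.21 over the genes called higher.

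Within each subunit class the shares of the paralogs differed between the groups. Tnnc1 made up 92.5% and 89.3% of troponin C FPKM in the untreated samples and 52.8% and 52.2% after 5-AZA, and Tnnc2 the rest. Tnni1 made up 90.0% and 90.2% of troponin I and then 32.8% and 30.0%, while Tnni2 went from 2.86% and 1.62% to 65.9% and 67.9%. For Tnni3 the shares were 7.16% and 8.21% and then 1.30% and 2.11%. The fast forms thus held the larger part of troponin I after 5-AZA and nearly the same part of troponin C as Tnnc1. In troponin T, Tnnt3 went from 12.5% and 15.1% to 56.8% and 53.2%, Tnnt1 from 58.4% and 48.3% to 25.6% and 28.8%, and Tnnt2 from 29.2% and 36.7% to 17.7% and 18.0%. The groups did not overlap in the share of any of the 8 genes. The shares of a class depend on each other, so these are not 8 separate results. No test was made of shares. The untreated shares rest on low sums, of 3.01 and 0.988 FPKM for troponin C, 4.48 and 3.32 FPKM for troponin I and 1.32 and 1.69 FPKM for troponin T.

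After 5-AZA the class sums were 270.1 and 377.2 FPKM for troponin C, 97.2 and 147.9 FPKM for troponin I and 160.3 and 239.9 FPKM for troponin T. The C to I ratio was 2.78 and 2.55 and the T to I ratio 1.65 and 1.62. These ratios were close to each other in the 5-AZA samples, although the sums of replicate 102 were the larger. Across classes, the 3 fast forms held 53.6% and 53.4% of all troponin FPKM after 5-AZA, against 5.87% and 6.90% in the untreated samples. The slow forms Tnni1 and Tnnt1 held 13.8% and 14.8%, and the cardiac forms Tnni3 and Tnnt2 5.61% and 6.04%, with Tnnc1 as the remainder.

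**Figure D3:**
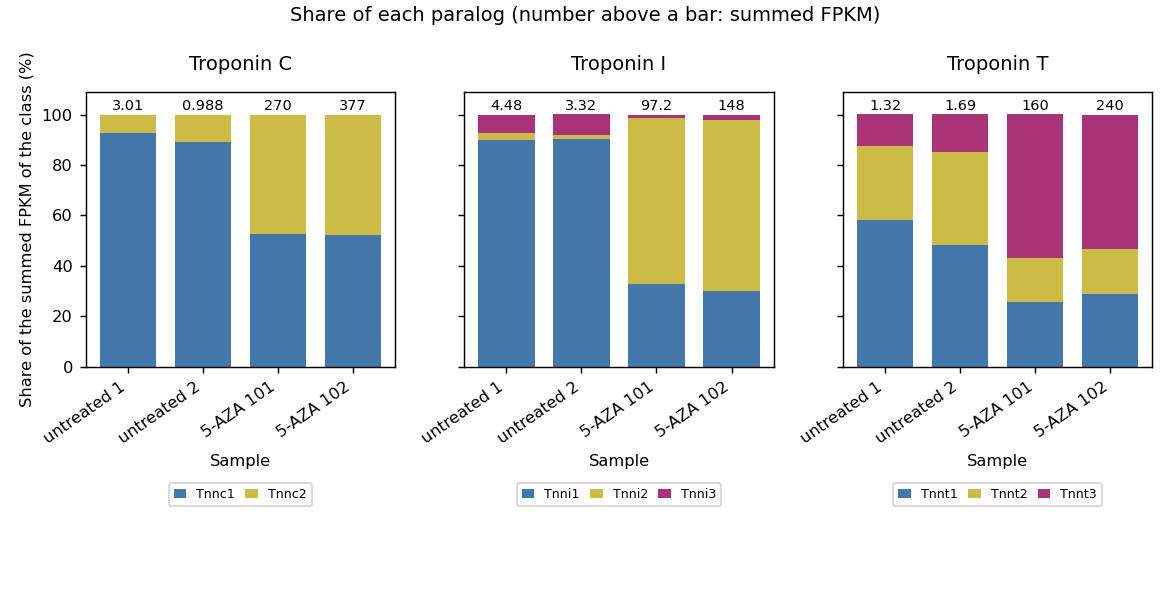
Share of each paralog in the summed FPKM of troponin C, I and T (percent, bars from 0) in each sample, with the summed FPKM above each bar. The fast forms Tnnc2, Tnni2 and Tnnt3 take 47.2% to 67.9% of their classes after 5-AZA and 1.62% to 15.1% in the untreated samples, where the sums are low.

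At the level of transcripts, the estimates divide reads that several isoforms share, so the gene sums are the firmer values. Of the 88 transcripts, 26 are curated by RefSeq (NM) and the others are predicted (XM). limma tested 46 of the 88 and called 26 higher and 0 lower (0 also without adjustment). Over the whole table it called 745 higher of 35557 transcripts tested, or 2.10% (93 were called lower). Unadjusted, 36 of the 46 were higher at a p below 0.05 and over 2-fold, as were 2876 of the 35557. The limit of a mean of 0.1 FPKM was passed by 46, of which 12 reached it in the untreated samples alone, and 5 of those 12 were called higher (412 of 31977 such transcripts over the whole table). The 42 not tested stayed at or below 0.205 FPKM in every sample. Values below 1e-10 FPKM, given for 3 called transcripts in both untreated samples, may be failed estimates. Higher calls among all 88 transcripts were also counted under other settings. limma called 0 of them without 5-AZA replicate 101, 0 without replicate 102 and 0 with no limit on low values (39, 32 and 36 at an unadjusted p below 0.05 and over 2-fold, as were 2917, 2443 and 2877 transcripts of the whole table), 15 without untreated replicate 1 and 9 without untreated replicate 2.

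Tnnc1 and Tnnc2 each had 1 transcript, with the values given for the genes. For Tnni2 the curated NM_009405.2 was at 57.2 and 90.9 FPKM after 5-AZA, or 89.4% and 90.6% of the gene, and the predicted XM_006508539.3 at 6.81 and 9.44 FPKM. Both were called higher (limma, adjusted p = 0.00109 and 0.0063) and passed the limit on low values through their 5-AZA values. The pair of curated Tnni1 transcripts differed. NM_021467.5, variant 1, was at 2.57 and 0.779 FPKM in the untreated samples and at 30.1 and 41.0 FPKM after 5-AZA (log2 fold change 4.52 ± 0.53; limma, adjusted p = 0.0176). NM_001112702.1, variant 2, was at 1.13 and 1.87 FPKM and then at 1.45 and 3.00 FPKM, with overlapping groups, and was not called (log2 fold change 0.50, 95% interval -0.69 to 1.68; limma, adjusted p = 0.676). The difference between the variants was not tested. Variant 1 made up 94.3% and 92.3% of the gene after 5-AZA. For Tnni3, neither transcript was called. The curated NM_009406.3 was listed near 0 and at 0.216 FPKM in the untreated samples and at 1.16 and 2.99 FPKM after 5-AZA (log2 fold change 3.48 ± 0.82; limma, adjusted p = 0.119), and the predicted XM_017322110.1 was at 0.321 and 0.0569 FPKM and then at 0.104 and 0.137 FPKM.

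For Tnnt2 the curated variant 9, NM_011619.3, led. It was at 0.125 and 0.0829 FPKM in the untreated samples and at 16.0 and 25.2 FPKM after 5-AZA, or 56.4% and 58.6% of the gene (log2 fold change 6.64 ± 0.37; limma, adjusted p = 0.00246). Variant 5, NM_001130178.2, was below 0.001 FPKM in both untreated samples and at 7.06 and 10.9 FPKM after 5-AZA, or 24.9% and 25.4% (limma, adjusted p = 0.00533). It passed the limit on low values through its 5-AZA values. The predicted XM_006529390.3 was at 2.75 and 4.15 FPKM (limma, adjusted p = 0.0464). These 3 isoforms kept nearly the same shares in both 5-AZA samples. Of the 18 transcripts of Tnnt2, the 15 others were not called or not tested. Among them variant 1, NM_001130174.2, was at 0.0157 and 1.41 FPKM after 5-AZA and variant 6, NM_001130179.2, at 1.11 and 0.513 FPKM, so that the higher of the 5-AZA samples differed between these isoforms.

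Tnnt1 was carried by 2 curated isoforms. Variant 1, NM_001277903.1, was at 15.6 and 26.3 FPKM after 5-AZA (38.0% of the gene in both samples) and variant 2, NM_011618.2, at 13.5 and 25.8 FPKM (33.0% and 37.3%). In the untreated samples variant 1 was at 0.156 and 0.0077 FPKM and variant 2 at 0.0012 and 0.0093 FPKM. Both were called higher (limma, adjusted p = 0.00586 and 0.00314), as were variant 3, NM_001277904.1, at 3.78 and 5.56 FPKM, and 3 predicted isoforms at 1.59 to 3.31 FPKM. These 6, of 8 tested, passed the limit on low values through their 5-AZA values, and 2.10% of all transcripts tested were called higher. The predicted XM_017322113.1 differed from these: it was at 0.210 and 0.610 FPKM in the untreated samples and at 1.36 and 0.569 FPKM after 5-AZA, and was not called (limma, adjusted p = 0.537). XM_017322112.1 was not called either, at 0.924 and 2.44 FPKM after 5-AZA.

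Tnnt3 was spread over many isoforms. Of its 50 transcripts 8 are curated. Of the 20 tested 12 were called higher, where 2.10% of all transcripts tested were called higher. All 12 were below 0.1 FPKM in both untreated samples, so they passed the limit on low values through their 5-AZA values. The highest was variant 3, NM_001163667.1, at 17.0 and 27.2 FPKM after 5-AZA, or 18.6% and 21.3% of the gene (log2 fold change 7.58 ± 0.41; limma, adjusted p = 0.00229). It was followed by variant 4, NM_001163666.1, at 13.8 and 18.1 FPKM, by the predicted XM_006508585.1 at 10.6 and 15.1 FPKM, and by variant 1, NM_001163664.1, at 11.0 and 13.6 FPKM. Next came variant 6, NM_001163668.1, at 7.51 and 11.9 FPKM, the predicted XM_006508592.1, at 6.05 and 8.09 FPKM, and variant 5, NM_001163669.1, at 4.79 and 8.32 FPKM. Shares of single isoforms differed between the 5-AZA samples by at most 2.70 percentage points. Variant 8, NM_001163670.1, at 2.41 and 4.90 FPKM, missed the threshold (limma, adjusted p = 0.0505), as did variant 7, NM_011620.3, at 0.655 and 1.66 FPKM (limma, adjusted p = 0.0788). Of the called predicted isoforms, XM_006508546.3 and XM_006508590.1 were lower in replicate 102 (1.64 and 1.38 FPKM) than in replicate 101 (2.43 and 2.36 FPKM). Among isoforms that were not called, XM_006508558.3 was at 1.54 and 0.00986 FPKM and XM_006508586.1 was near 0 and at 1.10 FPKM. Curated isoforms held 62.7% and 67.1% of Tnnt3 after 5-AZA, against 80.2% and 83.3% for Tnnt1 and 86.7% and 89.5% for Tnnt2.

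**Figure D4:**
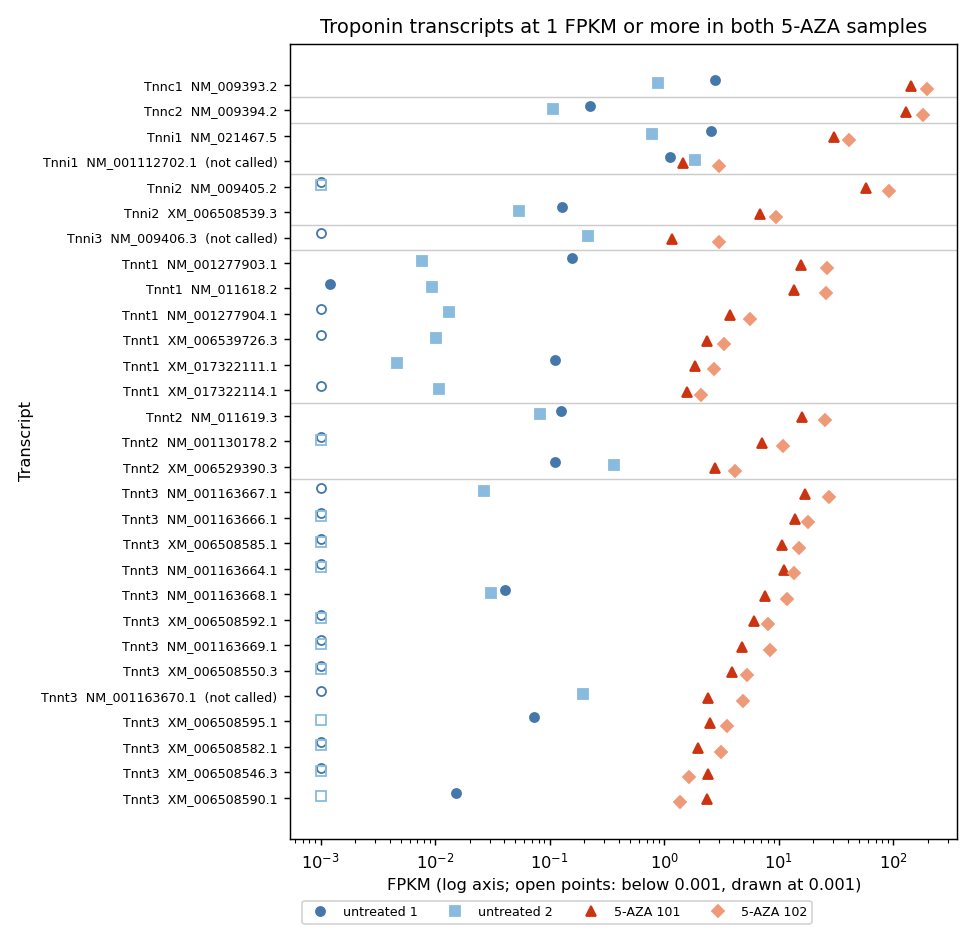
FPKM (log axis) in each sample of the 29 troponin transcripts at 1 FPKM or more in both 5-AZA samples, grouped by gene, with values below 0.001 drawn as open points at 0.001. The values of Tnni1 NM_001112702.1 overlap between the groups, and the choice by 5-AZA level favours transcripts that are higher there (745 of 15831 transcripts of the whole table chosen in the same way were called higher).

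The other genes of the thin filament were described next. Of 12 genes, 8 were called higher and 4 were not called, where 13.1% of all genes tested were called higher. The median log2 fold change of the 12 was 3.70 (0.05 over all genes tested). Of the 12, 7 reached the limit on low values in the untreated samples alone, and 3 of those 7 were called higher (899 of 12130 such genes). The other 5 passed it through their 5-AZA values. Acta1, skeletal alpha-actin, was at 0.369 and 0.211 FPKM in the untreated samples and at 182.0 and 311.7 FPKM after 5-AZA (log2 fold change 9.29 ± 0.27; limma, adjusted p = 2.23e-07). Actc1, cardiac alpha-actin, which developing skeletal muscle also expresses, was at 0.0515 and 0.0728 FPKM and then at 61.6 and 89.2 FPKM. Acta1 was above Tnnc1, the most abundant troponin, in both 5-AZA samples. The tropomyosin gene Tpm1, to whose protein troponin T binds, was abundant in all samples, at 281.5 and 287.6 FPKM untreated and 444.8 and 552.3 FPKM after 5-AZA. Its log2 fold change of 0.80 ± 0.12 (limma, adjusted p = 0.00151) did not reach 2-fold. Tpm2 was called higher, from 30.4 and 28.2 FPKM to 127.7 and 189.3 FPKM. Nrap and Lmod3, listed at 0 in both untreated samples, were at 0.978 and 1.72 FPKM and at 4.18 and 6.40 FPKM. Tpm3, Nebl and Tmod4 were not called.

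Fibre type genes outside the troponins were set beside the paralogs. Of the fast fibre genes 10 of 10 were called higher, beside 13.1% of all genes tested, with a median log2 fold change of 6.95. Only Mylpf, Myl1 and Actn3 reached the limit on low values in the untreated samples alone (899 of 12130 such genes were called higher). The other 7 passed it through their 5-AZA values. Mylpf, the fast regulatory light chain, was at 0.392 and 0.376 FPKM and then at 352.9 and 516.8 FPKM (limma, adjusted p = 2.79e-08). Myh4, a fast myosin heavy chain, was at 0 and near 0 and then at 2.57 and 3.35 FPKM, and Mybpc2 was listed at 0 and then at 1.16 and 1.67 FPKM. Of the slow fibre genes, several of which are also ventricular, 4 of 8 were called higher, beside the same 13.1%. Of the others, 2 were not called and 2 were not tested. The median log2 fold change was 4.72 over the 6 tested, of which 4 passed the limit through their 5-AZA values. Casq2 led, at 0.128 and 0.0915 FPKM and then 15.1 and 22.4 FPKM (limma, adjusted p = 8.23e-07), and Myh7, the slow myosin heavy chain, was at 0.0142 and 0.0098 FPKM and then at 3.12 and 5.44 FPKM. Myl3 was listed at 0 in all samples. The fast list summed to 653.5 and 950.8 FPKM after 5-AZA and the slow list to 26.3 and 39.0 FPKM.

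A list of other cardiac-defining genes was set beside the cardiac troponin forms. It leaves out several slow fibre genes that are also ventricular (4 of 8 slow fibre genes were called higher, beside 13.1% of all genes tested). It also leaves out the cardiac alpha-actin Actc1 and the embryonic and atrial light chain Myl4, which are in other lists. Of the 13 genes of this list 2 passed the limit on low values, and 10 stayed below 0.1 FPKM in all samples. Only 1, Myh6, which passed the limit through its 5-AZA values, was called higher, beside 13.1% of all genes tested. Myh6, the cardiac alpha-myosin heavy chain, was listed near 0 and at 0 in the untreated samples and at 0.309 and 0.385 FPKM after 5-AZA (limma, adjusted p = 0.00389). Gata4, a cardiac and mesodermal transcription factor, was the most abundant gene of the list in all samples, at 2.13 and 2.17 FPKM and then 2.02 and 3.10 FPKM, and was not called. Myl7, Nppa, Nppb, Tbx5 and Hand2 were listed at 0 in all 4 samples. Nkx2-5 was at 0 and 0.0975 FPKM untreated and at 0.0419 and 0 FPKM after 5-AZA. The list summed to 2.17 and 2.27 FPKM in the untreated samples and to 2.53 and 3.62 FPKM after 5-AZA, below the 28.3 and 43.1 FPKM of Tnnt2 alone.

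Developmental genes of skeletal muscle were described in the same way. Of 9 with values, 7 were called higher (median log2 fold change 5.91), beside 13.1% of all genes tested. The other 2, Myf5 and Myf6, were listed at 0 in all samples. Of the 7, 6 passed the limit on low values through their 5-AZA values, all but Myl4. Myl4, the embryonic and atrial light chain, was at 1.32 and 1.20 FPKM and then at 185.2 and 267.0 FPKM (log2 fold change 7.36 ± 0.17; limma, adjusted p = 1.64e-07). Myog, the factor of myogenic differentiation that binds E-boxes, was at 0.0806 and 0.101 FPKM and then at 33.0 and 52.4 FPKM (limma, adjusted p = 3.13e-07). Myod1 was listed at 0 and then at 0.512 and 1.23 FPKM (limma, adjusted p = 0.000944). Of 9 transcription factors of striated muscle 8 were tested, with a median log2 fold change of -0.07. Of these 8, 1 was called higher, which is near the 13.1% of all genes tested. It was Mef2c, at 6.04 and 5.53 FPKM and then 13.3 and 15.0 FPKM (limma, adjusted p = 0.000193). Tead1, whose protein binds the MCAT motif, was at 18.0 and 16.5 FPKM and then at 14.3 and 15.3 FPKM, and was not called.

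Markers of other cell types were read in the same samples, where 13.1% of all genes tested were called higher. Of 7 adipocyte markers 6 were called higher, at a median log2 fold change of 6.10 over the list. Of 6 that reached the limit on low values when untreated, 5 were called, beside 899 of 12130 such genes. The sum of the 7 markers went from 46.2 and 30.3 FPKM to 1135 and 1560 FPKM. Fabp4, the most abundant, was at 22.9 and 9.67 FPKM and then at 886.6 and 1196 FPKM, Pparg was not called, and no marker of this list was at 0 in all samples. Of 7 smooth muscle markers 3 were called higher, Cnn1, which passed the limit through its 5-AZA values, Tagln and Mylk, the median log2 fold change was 1.53 over the 6 tested, and the sum was 199.3 and 201.8 FPKM and then 229.1 and 311.8 FPKM. Acta2 led this list and was not called, and Myh11, its defining myosin, was at 0.0862 and 0.152 FPKM after 5-AZA. Of 6 immune markers 5 were not tested, and the 1 tested, Cd68, was called higher, at 1.16 and 1.47 FPKM and then 2.27 and 3.69 FPKM. Cd68 led that list, which summed to 1.16 and 1.47 FPKM and then 2.41 and 3.70 FPKM, and Cd3e and Adgre1 were at 0 in all samples. Of 8 mesenchymal and fibroblast markers 1 was called higher, Thy1, which is near the share over all genes tested. The median log2 fold change of the 8 was 0.52. Their sum, which Vim dominates, was 3238 and 3297 FPKM and then 2084 and 2332 FPKM, so the sum and the median differ in direction. Of 5 proliferation markers 0 were called in limma's test, with none at an unadjusted p below 0.05 and over 2-fold, led by Pcna, with a median log2 fold change of -0.31, and their sum was 217.5 and 175.4 FPKM and then 170.6 and 164.2 FPKM. The part of these other cell types in the troponin levels was not tested.

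**Figure D5:**
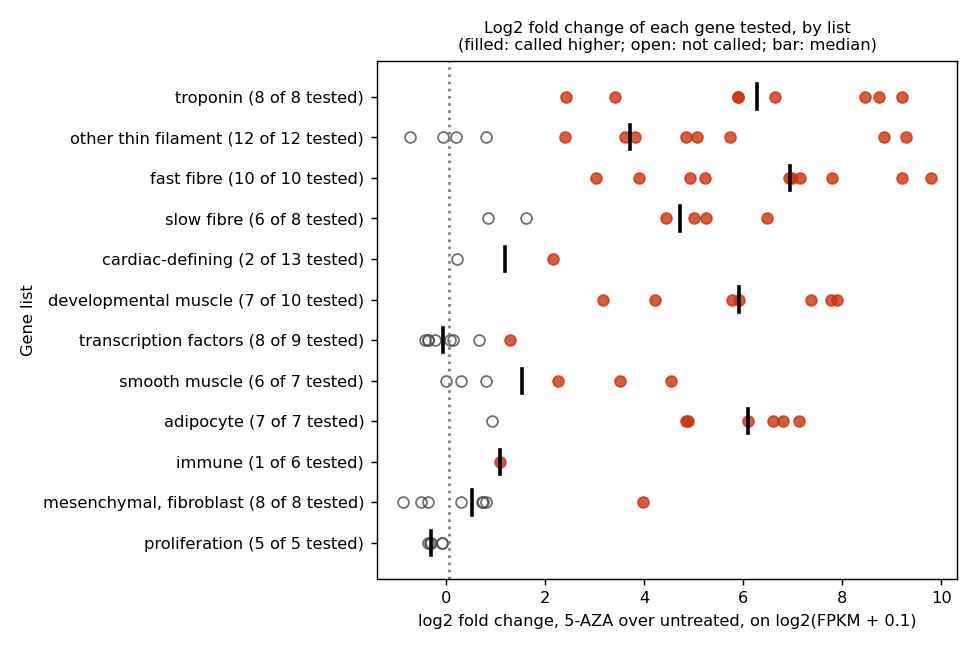
Log2 fold change (5-AZA over untreated, on log2(FPKM + 0.1)) of each gene tested in the troponin list and 11 other lists, with a bar at each list's median and a dotted line at 0.05, the median of all genes tested. The troponins lie between 2.41 and 9.20, and the adipocyte list has a median of 6.10.

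Genes outside the troponins with the most similar values over the 4 samples were found for 3 troponins, as the smallest Euclidean distance of log2(FPKM + 0.1) among genes tested, with the 8 troponins themselves left out. For Tnnt3 they were Actc1 (distance 1.52), Ly6e (1.55), Gm11127 (1.75), the muscle creatine kinase Ckm (1.80) and Acta1 (1.84). Ckm was at 0.0888 and 0.082 FPKM in the untreated samples and at 43.6 and 65.2 FPKM after 5-AZA. For Tnnt2 they were Rhox5 (0.747), Asb5 (0.987), Il33 (1.16), Gm11127 (1.22) and Col8a1 (1.26). Rhox5, a homeobox gene of the reproductive tract, was at 0.286 and 0.440 FPKM and then at 39.7 and 50.0 FPKM. For Tnni1 they were Crabp2 (0.633), Col15a1 (0.675), Apol9a (0.767), Adh1 (0.816) and Medag (0.867). Crabp2, a retinoic acid binding protein gene, was at 3.43 and 3.90 FPKM and then at 28.5 and 32.9 FPKM. The lists of Tnnt2 and Tnnt3 shared Gm11127, and that of Tnni1 shared no gene with them.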

How the data were processed

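Stranded libraries of RNA depleted of ribosomal RNA were sequenced from 2 untreated samples and 2 samples given 5-AZA. The submitters' processing notes name Trimmomatic, HISAT2, Bowtie2 2.2.9 and eXpress 1.5.1, with no roles, and the authors deposited FPKM values per transcript. eXpress divides reads shared by isoforms, so values of single isoforms are less certain than sums.

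Transcripts of a gene were summed. log2(FPKM + 0.1) was fitted over all genes, and over all transcripts, with limma 3.58.1 (lmFit, eBayes with trend) in R 4.3.3, where the mean over the 4 samples reached 0.1 FPKM, with Benjamini and Hochberg's adjustment over all of them. Features were called at an adjusted p below 0.05 and over 2-fold. The study's count model could not be used, since FPKM are not counts. The test was tried on simulated data. Named genes were the 8 troponins, their transcripts with a mean of at least 0.1 FPKM, and the highest genes and those at 0 in lists of muscle and other cell type markers. Further genes named in these lists, and flanking genes, were chosen after their values were seen. Members and lists were chosen with earlier results of these data known. Pseudocounts, limits on low values, scalings, eBayes without trend, curated transcripts alone and the omission of each sample were tried as alternatives. lncRNAs and circRNAs were not used here. Promoter sequences came from RefSeq (GRCm38.p6); the notes list mm9, and the expression table has no coordinates.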

Additional observations from a re-analysis of the deposited data

How the results depend on the processing

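All 104 values of the 8 genes' log2 fold changes under the 13 alternatives were above 0, and 100 kept their side of the threshold. The other 4 are the losses of Tnnc1 and Tnni3 given with their levels, of which both of Tnnc1 and 1 of Tnni3 came from fits with fewer samples.

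Troponin genes called higher numbered 8 in all alternatives but 3: 7 with no limit on low values, 7 without 5-AZA replicate 101 and 6 without 5-AZA replicate 102, so the range was 6 to 8 when each sample was left out. Troponin transcripts called higher fell from 26 to 0 with no limit on low values (36 at an unadjusted p below 0.05 and over 2-fold in limma's test, of 66285 transcripts tested) and ranged from 0 to 15 when each sample was left out (0 without either 5-AZA replicate, with 39 and 32 unadjusted). A lone sample was assumed to vary like the other group.

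Over the whole table, 1724 genes were called higher and 174 lower. These were 875 and 86 with a pseudocount of 1 FPKM, 1179 and 83 with no limit, 845 and 122 with a mean of at least 1 FPKM, 1041 and 886 with quantile normalization, and 733 to 1617 and 52 to 184 when each sample was left out (925 and 52 without 5-AZA replicate 101, 733 and 70 without replicate 102). Calls that were higher made up 90.8% at first and 54.0% with quantile normalization, which moved the median log2 fold change of all genes from 0.05 to -0.12, and that of the troponins from 6.27 to 5.94. Centring on medians moved the former to -0.06. For transcripts, 745 were higher and 93 lower. These were 0 and 0 with no limit (2877 and 914 unadjusted in limma's test), 0 to 175 and 0 to 2 when each sample was left out (0 and 0 without either 5-AZA replicate, 175 and 2 without untreated replicate 1, 103 and 2 without untreated replicate 2), and the number lower was 60 with a pseudocount of 0.01 FPKM, 164 with centring on medians and 51 in eBayes without trend. The cause was not tested.

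With curated transcripts alone, the mean share after 5-AZA moved from 31.4% to 33.5% for Tnni1, from 66.9% to 64.8% for Tnni2, from 27.2% to 30.2% for Tnnt1, from 17.8% to 21.3% for Tnnt2 and from 55.0% to 48.5% for Tnnt3. No paired analysis was possible because the replicate numbers of the groups are not shared. Depth is unknown, so the counting error of the low untreated values, on which the largest changes rest, is unknown too.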
